A study of Mus musculus with 6 samples.

Results

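The comparison described is that of P1, the CD140a+ CD105+ stromal population with high ALDH activity, with P4, a CD140a+ CD105- population with intermediate ALDH activity, in sorted cells of the mouse omentum. These 2 libraries of the 6 in the study are defined by their sort gates and were paired across CD105 as the populations rich in Aldh1a2, which encodes an enzyme that makes retinoic acid. All 23352 genes in the files were compared, and 12055 of them reached 1 FPKM (fragments scaled for transcript length and library size) in P1 or P4.

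The study sorted CD45- stromal cells from the omentum of wild-type C57BL/6 mice by CD140a, CD105 and ALDH activity and sequenced the RNA of each population. P1, P2 and P3 were CD140a+ CD105+ with high, intermediate and low ALDH activity. P4 and P5 were CD140a+ CD105- with intermediate and low activity, and P6 was CD140a low and ALDH+. Each population had 1 library, made from total RNA with the NEBNext Ultra kit and read from a single end, and the age and number of the mice and any pooling are not stated in the sources used here.

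The omentum is a fold of visceral fat covered by mesothelium and holding milky spots, clusters of leukocytes on a stroma of fibroblastic cells. CD140a, the platelet-derived growth factor receptor alpha encoded by Pdgfra, marks fibroblastic stroma, and CD105, or endoglin, encoded by Eng, is a co-receptor for ligands of the TGF-beta family. Retinoic acid acts on nearby cells through nuclear receptors that bind DNA as dimers, and in the peritoneum both mesothelial and fibroblastic cells are known to make it.

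Eng and Pdgfra followed the gates on their proteins, and Aldh1a2 did not follow the rank of ALDH activity. Eng was at 52.4, 52.2, 42.6, 0.359, 0.231 and 0.728 FPKM from P1 to P6, so that the 3 CD105+ populations lay far above the others. P1 exceeded P4 146-fold (107 to 209.8), where the bracket gives the 95% interval for counting error. Aldh1a2 was at 469, 78.8, 134, 285, 145 and 209 FPKM from P1 to P6. P1 and P4 were thus the highest and next highest of the 6 for this enzyme, which restates the choice of the pair. P2 lay below P3 and P5, the populations of low activity. P1 exceeded P4 1.65-fold (1.63 to 1.67). Pdgfra was at 152 in P1 and 119 in P4 but 5.36 in P6. Ptprc, which encodes CD45, was at 0.602 in P1 and 0.312 in P4. The gene taken as a marker of the other side was Upk3b, a uroplakin of mesothelial cells, at 11.1, 6.78, 22.7, 383, 289 and 1139.8 FPKM from P1 to P6. It was 34.4-fold (32.9 to 36) higher in P4 than in P1, and other genes, given below, had wider ratios.

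There were no replicates, so no test of a difference between populations could be made. Each interval covers counting error only and says nothing of the spread between mice or sorts. A difference between sorted populations in bulk RNA can come from fewer cells of a type or from less RNA per cell, and the 2 cannot be told apart here.

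Most genes did not part the populations. Of the 12055 genes, 10270 (85.2%) were within 2-fold, and 79 of the 100 most abundant genes of P1 were also among the 100 most abundant of P4. A call required a 2-fold ratio and 1 FPKM or more in the higher library. On that rule 537 genes (4.45%) were higher in P1 and 1248 (10.4%) were higher in P4. The split depended on scaling: P1-higher genes made up 30.1% of called genes as reported, 40.9% after scaling by the median of ratios, 47.0% after quantile normalization and 61.7% after division by Gapdh. The median log2 ratio of P1 to P4 over the 12055 genes was -0.13 as reported and with a common sum of FPKM, 0.03 by the median of ratios, 0.07 after quantile normalization and 0.36 after division by Gapdh. Gapdh itself was at 214 in P1 and 302 in P4. None of the 12 reference genes at 1 FPKM or more was called. The median log2 ratio over the 13 in the files was -0.17 and turned to 0.32 on division by Gapdh. A counting interval could be given for 501 of the P1-higher genes, of which 229 included 2 and 3 included 1. Among P4-higher genes it could be given for 1156, of which 252 included 2 and 1 included 1. For these genes the number of reads did not place the ratio on 1 side of the threshold, before any spread between animals.

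**Figure D1:**
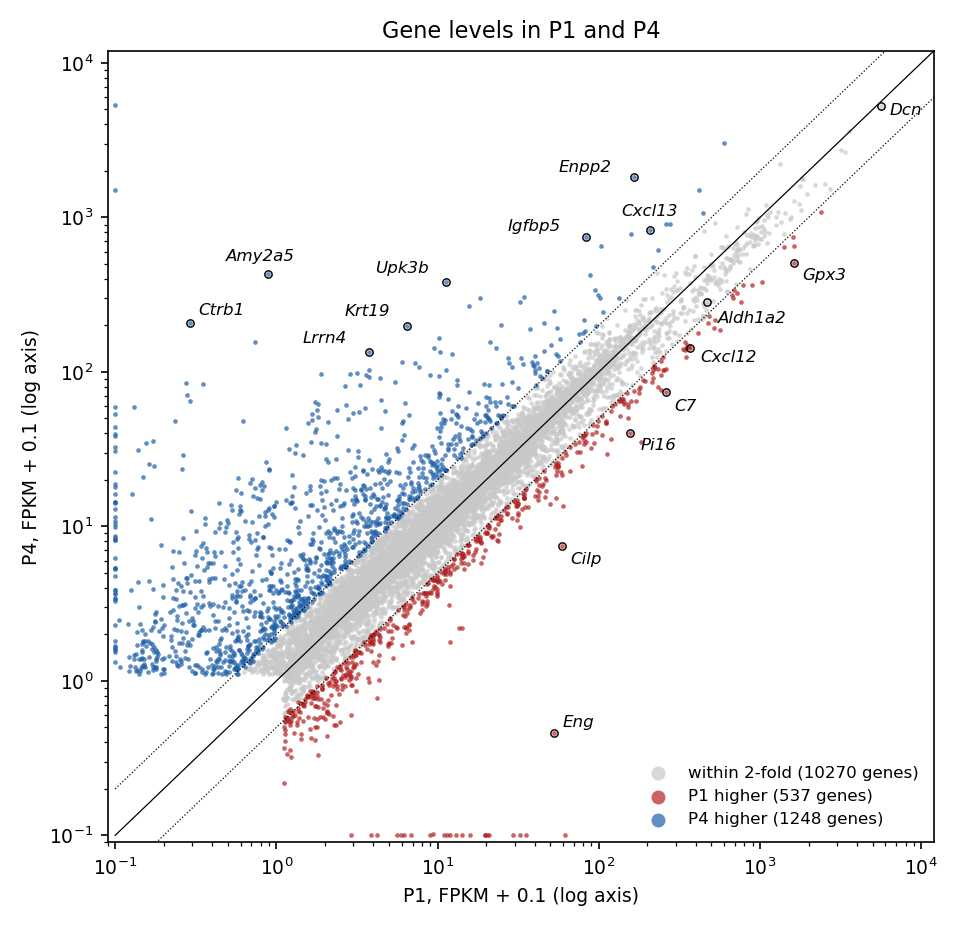
FPKM plus 0.1 in P1 (horizontal) and P4 (vertical), both on log axes, for the 12055 genes at 1 FPKM or more in P1 or P4, with the diagonal and 2-fold lines; 537 genes are higher in P1 (red), 1248 in P4 (blue) and 10270 lie within 2-fold (grey). Eng lies at 52.4 against 0.359, Upk3b lies at 11.1 against 383, Aldh1a2 lies within 2-fold at 469 against 285, and the split of called genes changes with scaling, from 30.1% P1-higher as reported to 61.7% after division by Gapdh.

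What the pair shared against the rest of the CD140a+ stroma was narrow. A gene was taken as shared when P1 and P4 were each at least 1.5 times P2, P3 and P5 and at 1 FPKM or more, and 16 of 11079 genes (0.144%) met this. Among the 10 pairs of the 5 CD140a+ populations the same rule gave 53 genes (0.473%) for P1 with P2, 215 (1.87%) for P2 with P3, 815 (7.11%) for P4 with P5, 71 for P3 with P5 and 21 for P2 with P4. The other 4 pairs gave between 4 and 8 genes.

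Aldh1a2 is among the 16, but the pair was chosen as rich in it. Beside Aldh1a2, the shared genes of highest level were Smpd3 and Emilin2. Smpd3, a neutral sphingomyelinase, was at 217, 81.5, 71.7, 143, 75.2 and 79.9 FPKM from P1 to P6. Emilin2, an elastic fibre glycoprotein, was near equal in the pair at 195 and 186, with 113 in P2, 84.7 in P3, 119.6 in P5 and 68.4 in P6. The interval of its P1 to P4 ratio, 0.996 to 1.1, included 1. Lgals3, which encodes galectin-3, was at 15.1 in P1 and 15.2 in P4, against 8.86, 6.19 and 9.03 in P2, P3 and P5, but P6 was higher than any at 50.4. Agap1, a GTPase-activating protein of endosomal traffic, was at 28.4 and 25.9 in the pair but also highest in P6 at 45, and 4833403I15Rik was at 24.7 and 20.6. At lower levels, Slc6a13, a GABA and taurine transporter, was at 4.38 in P1 and 2.81 in P4 with 1.34, 1.21, 0.407 and 0.139 in P2, P3, P5 and P6. The remaining 9 were Sphkap, Myzap, Filip1, Shroom3, Krt80, 3 genes of mitosis (Birc5, Cdca3 and Cenpm) and the small RNA Mir207. Of the 16, 6 were also at least 1.5 times P6. Naming the genes under 5 FPKM was decided after their values were seen.

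**Figure D2:**
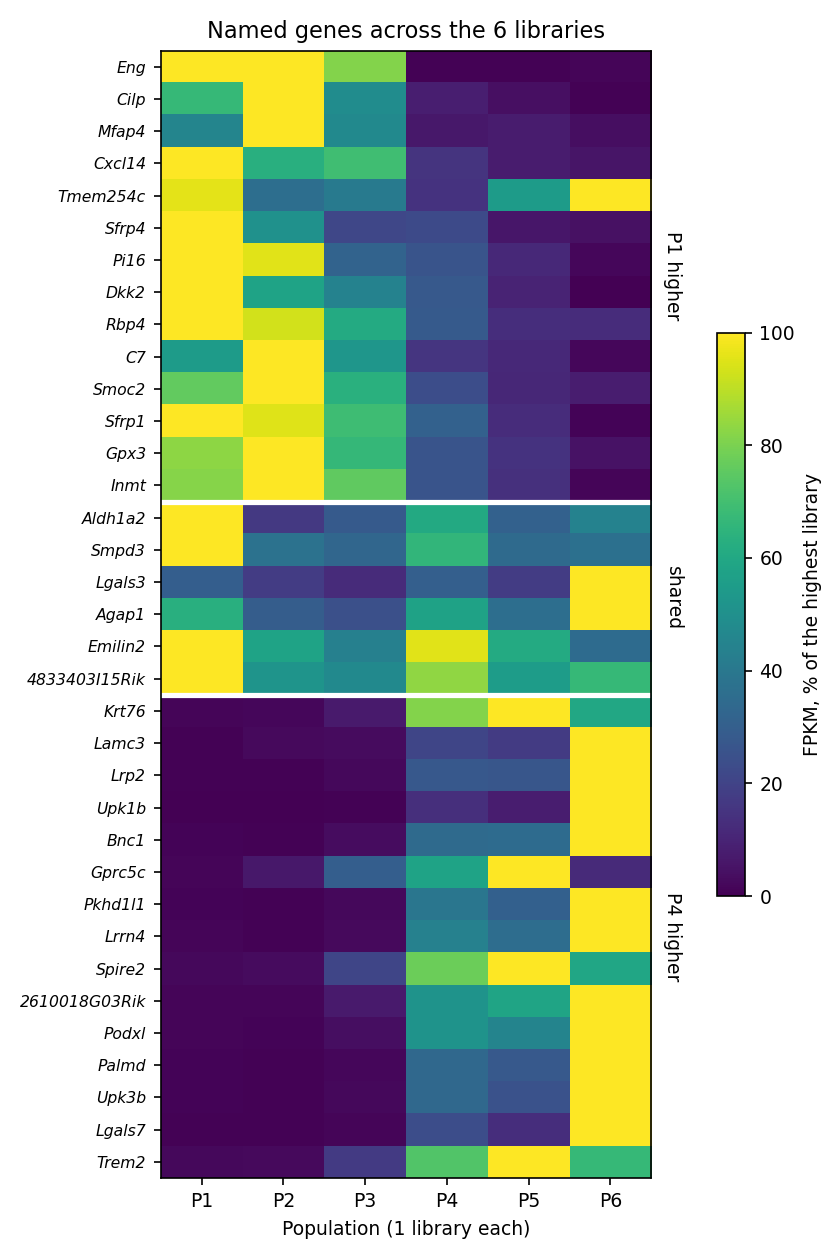
FPKM in each of the 6 libraries as a percentage of the highest library (colour), for 14 of the 15 genes with the largest ratio in P1, 6 shared genes and the 15 with the largest ratio in P4. Aldh1a2, for which the pair was chosen, is highest in P1 and P4 at 469 and 285 FPKM. Most P1-higher genes shown are also high in P2 and P3, and most P4-higher genes shown are highest in P6.

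P1 and P4 differ in CD105 and in ALDH activity, and P2 shares the CD105 gate with P1 and the intermediate ALDH gate with P4. The log2 ratio of P1 to P4 is therefore the sum of an ALDH step within CD105+ cells (P1 to P2) and a CD105 step at intermediate ALDH (P2 to P4), which share the P2 library. The CD105 step was the larger for 392 of the 537 P1-higher genes (73.0%) and for 962 of the 1248 P4-higher genes (77.1%). Among P1-higher genes the median CD105 step was 0.97 and the median ALDH step 0.27. Among P4-higher genes the medians were -1.45 and -0.43. For 174 of the P1-higher genes and 234 of the P4-higher genes the ALDH step ran against the difference. P3 and P5 differ by CD105 at low ALDH and share no library with the pair. P3 was at least 2 times P5 for 917 of 12152 genes (7.55%) and P5 at least 2 times P3 for 790 (6.5%). Of the P1-higher genes 421 were also higher in P3 than in P5, which was 78.4% of the former and 45.9% of the latter, and 6 ran the opposite way. Of the P4-higher genes 677 were also higher in P5 than in P3, 54.2% of the former and 85.7% of the latter, and 14 ran the opposite way.

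Genes chosen after their values were seen show the kinds of step. Igfbp5 was at 83.8 in P1, 79.6 in P2 and 745 in P4, a difference that lay in the CD105 step. Sema5a, a semaphorin, was at 4.45, 26.5 and 23, so that P2 was level with P4 and P1 stood below both. Akr1b3, an aldose reductase, was at 18.6, 4.28 and 7.69, with P1 above both. Fmo2, a flavin monooxygenase, was at 46.1, 111 and 15.5, highest in P2.

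**Figure D3:**
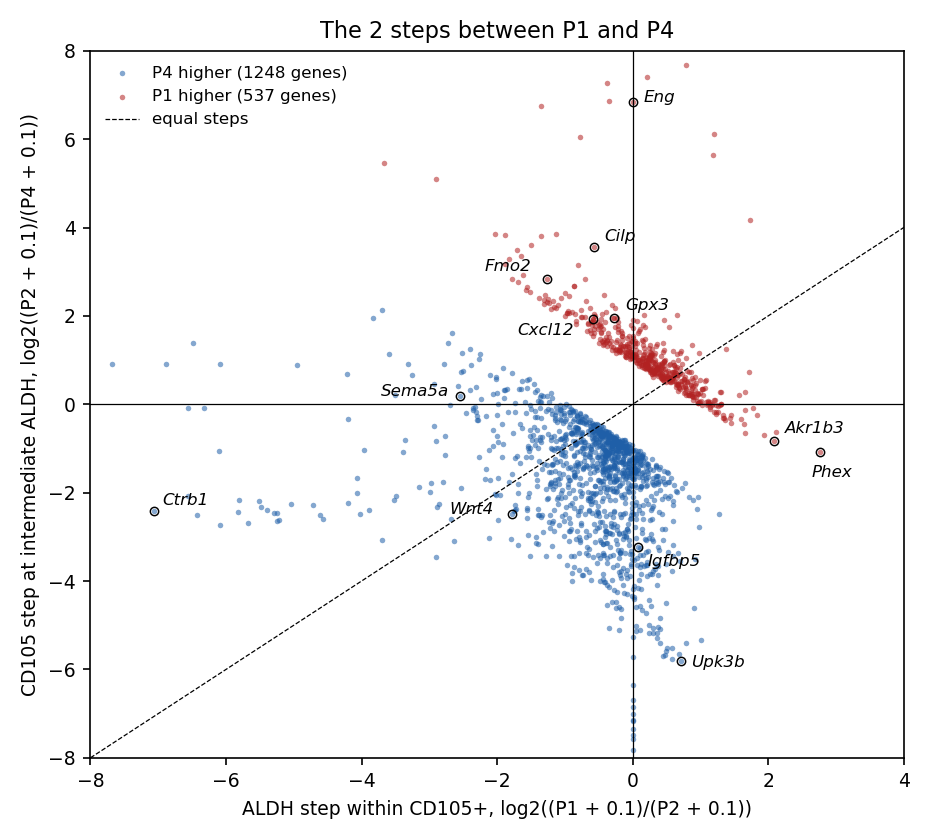
Log2 ratio of P1 to P2 (ALDH step, horizontal) against log2 ratio of P2 to P4 (CD105 step, vertical), 0.1 added to each FPKM, for P1-higher genes (red) and P4-higher genes (blue), with the line of equal steps; 24 called genes lie outside the axes. The CD105 step is the larger in 392 of 537 P1-higher and 962 of 1248 P4-higher genes, Eng lies on the vertical axis, and the numbers called in each direction change with scaling.

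The genes with the largest ratios in P1, after Eng, encode secreted matrix and signalling proteins. Cilp, a cartilage intermediate layer protein, was at 59.2, 88.3, 43, 7.4, 3.76 and 0.383 FPKM from P1 to P6, and P1 exceeded P4 8.0-fold (7.6 to 8.42). Mfap4, a microfibril-associated protein, was at 11.8 in P1 and 1.69 in P4, 6.99-fold. The chemokine gene Cxcl14 was at 14.1 and 2.1, 6.71-fold (5.71 to 7.9). All 3 fell from the CD105+ populations to the CD105- ones and were lowest in P6. Sfrp4, a secreted Frizzled-related antagonist of Wnt, was at 59.5, 30, 12.6, 13.4 and 3.61 from P1 to P5, so that it followed both gates. Pi16, a peptidase inhibitor used as a marker of adventitial fibroblast progenitors, was at 156, 148 and 49.6 in the CD105+ populations P1 to P3 and 40.2 in P4, 3.87-fold (3.75 to 3.99). Gpx3, the secreted glutathione peroxidase, was the most abundant of these genes, at 1616 in P1 and 504 in P4. Others were the Wnt modulator Dkk2 (53.9 against 15.1), the retinol carrier Rbp4 (49.4 against 13.9), the terminal complement gene C7 (260.0 against 73.6), Smoc2 (118 against 36.6), Sfrp1 (78.9 against 24.4), the methyltransferase Inmt (242 against 76.8) and Tmem254c (13.5 against 2.1). Unlike the other genes named here, Tmem254c was highest in P6, at 14.1.

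P4 was not the low end for most of these genes. Of the 537, 394 (73.4%) were at least 1.5 times higher in P4 than in P5, and 335 had their highest level in P1, 133 in P2, 36 in P3, 29 in P6 and 4 in P5. P1 was at least 2 times every other library for 54 of them. Dpt, which encodes dermatopontin, shows the order, at 1634, 1388, 986, 649.6, 264 and 8.7 FPKM from P1 to P6. Among P4-higher genes the P4 level was at least 1.5 times that of P5 for 184 of 1248 (14.7%). The same shares over all genes were not counted, and by the rule of the call no P1-higher gene could be highest in P4.

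Gene lists were compared by the members at 1 FPKM or more in P1 or P4, to be read against the 4.45% of all genes higher in P1 and the 10.4% higher in P4. Medians are of log2 ratios over all members in the files unless the counted members are named, and scaling was tried on the whole lists. Genes of the pliable matrix leaned to P1. Of 46 matricellular, proteoglycan and elastic fibre genes at 1 FPKM or more, 17 were higher in P1 (37%) and 2 in P4 (4.35%), and the median log2 ratio of the list was 0.79. Fbln5, a fibulin of elastic fibres, was at 158 in P1 and 64.7 in P4. Eln, elastin itself, was at 213 and 99, and Lum, the collagen-binding proteoglycan lumican, at 345 and 143. The exceptions in P4 were Fmod, fibromodulin, at 1.77 in P1, 21.2 in P2, 18.3 in P4 and 296 in P6, and Matn4, at 0.586 in P1 and 3.38 in P4. Ptx3 and Postn, both named by the study for P1, are in this list and are not independent of it. Ptx3 was at 151 and 50.4, and Postn at 216 and 115, within 2-fold.

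The abundant collagens of fibrils were close in the pair. Of 18 interstitial collagen genes 1 was higher in P1 (5.56%) and 3 in P4 (16.7%), with a median log2 ratio of 0.37. Col1a1 was at 1263 in P1 and 898 in P4, and Col1a2 at 1419.6 and 1064. Col3a1 was at 3389.6 and 2647 but listed at 0 in P2, which leaves its steps without a ratio. Col14a1, a collagen on the surface of fibrils, was the 1 higher in P1, at 334 against 141. Col6a5 was higher in P4 at 163 against 57.6, but P2, P3 and P5 exceeded both at 300.2, 238 and 273, so that P1 was the low one. In the basement membrane list 1 of 21 was higher in P1 (4.76%) and 5 in P4 (23.8%), with a median of -0.18 that turned to 0.22 on division by Gapdh. Its chains went both ways within 2-fold and beyond: Col4a1 was at 714 in P1 and 372 in P4, whereas Lamc3, a laminin gamma chain, was at 0.48 in P1 and 20.6 in P4, and Agrn, agrin, at 9.3 and 25.5.

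Enzymes that turn matrix over also leaned to P1. Of 27 matrix proteases and inhibitors 8 were higher in P1 (29.6%) and 3 in P4 (11.1%), with a median of 0.66. Mmp2, a gelatinase, was at 253 in P1 and 103 in P4, 2.47-fold (2.39 to 2.55). Mmp3, or stromelysin, was at 34.9 and 13.2, and Adamts2, which trims procollagen, at 340.4 and 155. On the other side, Adamts9 was at 1.48 in P1 and 5.15 in P4. Of 14 complement genes 3 were higher in P1 (21.4%) and 1 in P4 (7.14%). The median was 0.20 over the 22 in the files and -0.03 over the 14 counted, so its sign depended on the members taken. C4b, whose product is cleaved when the classical pathway is triggered, was at 1028 in P1 and 384 in P4. Clu, clusterin, an inhibitor of the terminal complex, was at 15.6, 51.7, 151, 269, 306 and 531 FPKM from P1 to P6.

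Markers of adventitial progenitors and preadipocytes had larger shares higher in P1 than the 4.45% of all genes, a difference that was not tested. Of 22 adventitial genes 8 were higher in P1 (36.4%) and 2 in P4 (9.09%, near the 10.4% of all genes), with a median of 0.87. Ly6c1 was at 515 in P1 and 194 in P4, and Ly6a, which encodes the stem cell antigen Sca-1, at 1417 and 645. The 2 in P4 were Wnt2, at 0.938 in P1 and 7.02 in P4, and Gsn, which was listed at 0 in P1 and at 5350.4 in P4. Whether that 0 reflects the cells was not tested, so Gsn is no firm member of the P4 side, and the summed level of the list (9168 in P1 and 10193 in P4) turns on it. Cd34 was within 2-fold and on the side of P4, at 393 and 565. Of 20 preadipocyte genes 10 were higher in P1 (50%) and none in P4, with a median of 0.87. Gdf10, a TGF-beta family ligand, was at 561 in P1 and 185 in P4, 3.03-fold (3.0 to 3.06). Cebpa, a transcription factor of fat cell differentiation, was at 34.4 and 15.5, and Lpl, lipoprotein lipase, at 412 and 179.6. Both are also in the adipocyte list given below, of which 4 of 7 members were higher in P1, so the 2 lists are not independent. Pparg fell short of the call at 12 and 6.15. The medians of these lists kept their sign under each scaling tried.

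Of 27 vasoactive and angiogenic genes 13 were higher in P1 (48.1%) and 5 in P4 (18.5%). The median was 0.89 over these 27 and 0.49 over the 37 in the files. Of the list 5 were named by the study for P1 from these same libraries, so its share in P1 is not independent of that choice. The share without them was not counted. Outside those 5, Agt, angiotensinogen, was at 46.8 in P1, 69.8 in P2 and 16.9 in P4. Figf, the lymphatic growth factor also called Vegfd, was at 140.4 and 67.1 in P1 and P4, and Nrp1, a co-receptor for semaphorins and vascular growth factors, at 53.5 and 24.2. Angpt4, an angiopoietin, was at 3.59 in P1 and 0.937 in P4 but highest in P2 at 15. Those higher in P4 included Ptgis, prostacyclin synthase, at 94.4 in P1 and 339 in P4, 3.59-fold (3.5 to 3.68), and Gucy1a3, a subunit of the nitric oxide receptor guanylate cyclase, at 0.269 and 6.69. Apln, the ligand apelin, was at 24.4, 49.1, 79.9, 64.1 and 134 from P1 to P5, lowest in P1 of the 5. Vegfa did not part the pair, at 94.1 and 93.5.

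The steps of retinoid metabolism were divided between the populations. Of 18 retinoid genes 4 were higher in P1 (22.2%) and 3 in P4 (16.7%), and the median of the list was 0 as reported and 0.45 on division by Gapdh. Retinol becomes retinaldehyde through Rdh10, which was at 33.9, 31.2, 64.2, 112, 149 and 40.8 FPKM from P1 to P6, 3.31-fold (3.2 to 3.42) higher in P4 than in P1. Dhrs9, a further retinol dehydrogenase, was at 0.315 in P1 and 9.11 in P4, with 29.4 in P6. Adh1, an alcohol dehydrogenase that also takes retinol, ran the other way at 169 in P1 and 65 in P4. Of the enzymes that make retinoic acid, Aldh1a1 was at 41.4 in P1 and 78.3 in P4 and Aldh1a3 at 19.5 and 8.99, both below Aldh1a2 on this per-length scale. Stra6, the cell-surface receptor for retinol carried by Rbp4, was at 0.452 in P1, 4.23 in P4 and 22.7 in P6, whereas Rbp4 itself was higher in P1. Cyp26b1, which degrades retinoic acid, was at 3.69 and 1.83, a ratio whose interval of 1.79 to 2.27 included 2. The receptors were near level: Rara was at 16.6 and 17, Rarb at 3.18 and 3.39, and Rarg at 28 and 30.7.

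Wnt genes were called in both directions. Of 38 members 7 were higher in P1 (18.4%) and 14 in P4 (36.8%), and the median over these 38 was -0.34. Over the 50 in the files the median of -0.10 became 0.00 by the median of ratios and quantile normalization and 0.04 on division by Gapdh. Among ligands, Wnt4 was at 5.91, 20.6, 41.8, 115, 172 and 50.6 FPKM from P1 to P6, 19.5-fold (18.4 to 20.6) higher in P4 than in P1. Wnt2b was at 2.17 in P1 and 20.6 in P4, with 273 in P6. Wnt11 was the opposite case at 9.22 and 4.38. R-spondins, which raise Wnt receptor levels, split between Rspo3 in P1, at 56 against 24.6, and Rspo1 in P4, at 93.9 against 42.8. Secreted modulators went both ways. Sfrp1, Sfrp4 and Dkk2, given above, and Sfrp2, at 23.6 in P1 and 10.2 in P4, were on the side of P1. Dkk3 went to P4 at 93.9 against 10.1, as did Frzb at 1.29 against 0.151. The receptor Fzd1 was at 37.2 in P1 and 189.6 in P4, while Fzd4 was at 65.3 and 33.1. Of the genes that Wnt signalling induces, Nkd1 was at 8.63 in P1 and 28.9 in P4, and Axin2 at 6.25 and 12.4, just under the call.

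Of 47 TGF-beta and BMP genes 7 were higher in P1 and 7 in P4 (14.9% each, against 4.45% and 10.4% of all genes), with a median of 0.12. Of the signalling receptors that endoglin works with, Acvrl1, known as ALK1, at 58.3 in P1 and 33.2 in P4, and Tgfbr2, at 145 and 112, were within 2-fold, whereas Tgfbr1 was higher in P4 at 18.4 against 5.77. Of the secreted antagonists, Fst, follistatin, at 66.4 and 32.7 and Nog, noggin, at 3.9 and 1.85 were on the side of P1, and Chrd, chordin, at 8.52 and 14.9 was within 2-fold on the side of P4. The ligand genes Tgfb3 (20.1 in P1 and 51.3 in P4) and Inhba (0.493 and 5.59) were on the side of P4. Id1, a target of BMP signalling, was at 25.2 and 52.5, and Id3 at 754 and 514. In the Hedgehog and Notch list 2 of 15 were higher in P1 (13.3%) and 1 in P4 (6.67%), with a median of 0.26. Those in P1 included Gli1 (7.95 in P1 and 2.78 in P4), a target of Hedgehog signalling, and Ptch1 was level at 2.13 and 2.22. Dll1, a Notch ligand, was at 0.284 in P1 and 4.49 in P4.

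Genes of the FGF and IGF systems (ligands, receptors and binding proteins) were higher in P4 for 7 of 19 members (36.8%, against 10.4% of all genes) and in P1 for 1 (5.26%, near the 4.45% of all genes). Their median was -0.15 as reported, 0.00 by the median of ratios and quantile normalization, and 0.04 on division by Gapdh. Fgf1 was at 12.1, 10.4, 35.4, 131, 166 and 171 FPKM from P1 to P6, 10.8-fold (9.86 to 11.9) higher in P4. Fgf7, a growth factor for epithelium, was the 1 gene of the list higher in P1, at 31.1 against 10.8. Its receptor gene Fgfr2 was higher in P4, at 43.8 against 10.3. Of the binding proteins of insulin-like growth factors, Igfbp3 was at 22.8 in P1 and 142 in P4 and Igfbp6 at 261 and 905, whereas Igfbp4 was level at 1838 and 1761. Guidance molecules were higher in P4 for 8 of 30 (26.7%) and in P1 for 3 (10%). The median was -0.10 over these 30 and 0.03 over the 41 in the files, so its sign depended on the members taken. The P4 members included Sema3f (2.25 in P1 and 27.3 in P4) and the receptor Plxna4 (0.503 and 12.4), and those in P1 were Ntn1, netrin (42.3 and 16.6), Ephb2 (16.4 and 6.0) and Plxnd1 (25.7 and 12.7).

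Chemokines that place lymphocytes differed in kind. Of 25 lymphoid-tissue chemokines and cytokines 6 were higher in P1 (24%) and 7 in P4 (28%), with a median of 0.44. Cxcl12, which retains B cells and progenitors, was at 366, 551, 597, 144, 117 and 6.36 FPKM from P1 to P6, 2.55-fold (2.51 to 2.59) higher in P1 than in P4. Ccl19, a ligand of the receptor that guides T cells and dendritic cells, was at 90.8 in P1 and 39.8 in P4, but higher in P2 and P3 at 168 and 204. Cxcl13, which draws B cells to follicles and milky spots, was at 209, 304, 2089.6, 825, 3464 and 47.4 FPKM from P1 to P6. It was thus highest in the populations of low ALDH on both sides of CD105, and P4 exceeded P1 3.95-fold (3.87 to 4.03). The eosinophil chemokine Ccl11 was at 688 in P1 and 341 in P4, with an interval of 1.98 to 2.06 that included 2. Il34, a ligand of the macrophage receptor Csf1r, was at 2.69, 8.14, 43.9, 49.2 and 99.4 from P1 to P5. Il33, an alarmin, was at 54.2 and 129.6 in P1 and P4, and Il7 at 1.21 and 4.5, both on the side of P4. Receptors and adhesion molecules of stromal organizers were within 2-fold for 12 of 14, among them Vcam1 (54.5 and 39), Pdpn (102 and 120.0) and Ltbr (50 and 37). The 2 called were Cd44 (15.6 in P1 and 73.8 in P4) and Cd200 (3.22 and 17.1), both higher in P4 and 14.3% of the list, near the 10.4% of all genes. The list median of -0.23 turned to 0.16 on division by Gapdh.

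Transcription factors of mesenchyme and position included members on each side, 9 of 46 in P1 (19.6%) and 7 in P4 (15.2%). Tcf21, a basic helix-loop-helix factor of visceral mesenchyme, was at 177, 141, 119, 72.8, 29 and 2.74 FPKM from P1 to P6. Gata5 was at 1.22, 0.925, 5.23, 33.7, 37.4 and 34.8 FPKM from P1 to P6, 27.5-fold (23.9 to 31.9) higher in P4 than in P1. Gata6, known for its role in mesothelium and peritoneal macrophages, was at 14.9 and 58.3. The paralogs Twist2 (34 in P1 and 15.1 in P4) and Twist1 (9.18 and 18.8) went opposite ways. Nkx2-3, a homeobox factor of gut and spleen stroma, was low but on the side of P1 at 2.81 and 0.50. The median was 0.29 over these 46 but -0.02 over the 74 in the files, which became 0.00 by the median of ratios and quantile normalization and 0.18 on division by Gapdh, so its sign depended on the members and the scaling. Of 16 Hox genes at 1 FPKM or more none was higher in P1 and 1 in P4.

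Eng apart, at 146-fold in P1, the 15 largest ratios at 10 FPKM or more were wider in P4 than in P1. With the pancreatic enzymes described later set aside, Krt76, a keratin, had the largest ratio of the P4-higher genes. It was at 0.195, 0.276, 1.1, 12.5, 15.3 and 9.2 FPKM from P1 to P6, 64.1-fold (42.2 to 103) higher in P4. Lamc3 followed with 42.9-fold (35.7 to 52.2). Lrp2, the endocytic receptor megalin, was at 0.261 in P1, 11.2 in P4 and 40.8 in P6. The uroplakin gene Upk1b was at 1.05, 43.5 and 324 in the same libraries, and Bnc1, a zinc finger factor of squamous epithelium and mesothelium, at 0.339, 14 and 40.4. These genes rose again from P4 to P6, except Krt76, which was highest in P5. Others of the 15 were the large membrane protein gene Pkhd1l1 (1.63 in P1 and 63.9 in P4), Lrrn4 (3.64 and 135), Podxl, podocalyxin (2.77 and 97), Palmd (0.759 and 26.1), Lgals7 (1.56 and 53.6), 2610018G03Rik (1.72 and 61.9) and the actin nucleator Spire2 (0.465 and 17.2). Trem2, a lipid-sensing receptor best known in macrophages, was at 1.67, 1.9, 13.4, 56.9, 78.1 and 52.3 FPKM from P1 to P6. Gprc5c, an orphan receptor, was at 0.261 in P1, 10.3 in P4, 17.7 in P5 and 2.08 in P6.

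The P4-higher genes were highest in P6 for 709 of 1248 (56.8%), in P5 for 415, in P4 for 84, in P3 for 32 and in P2 for 8. P6 was at least 2 times P4 for 328 of them. By the rule of the call none could be highest in P1. The shares of all genes highest in each library, or at least 2 times higher in P6 than in P4, were not counted. These counts are therefore not read as a trait of the P4-higher genes. Leaving out every gene that peaked in P6, a choice made after seeing the data, left 539 P4-higher genes.

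Mesothelial markers moved with this difference. Of 17 mesothelial genes at 1 FPKM or more 16 were higher in P4 and none in P1, with a median log2 ratio of -4.03 over the 19 in the files. Their summed level was 195, 267, 348, 1605, 1364 and 4248 FPKM from P1 to P6. Upk3b was the most abundant of them in P4 and Wt1 in P1. Wt1, a zinc finger factor, was at 50.3 in P1 and 149 in P4. Calb2 was listed at 0 in P4, and Calb2 and Cdh1 in P1. The list was not scaled evenly from P6 to P4: P4 had 1.56% of the P6 level of Krt7 and 88.9% of that of Ildr2, with a median of 33.6% over 17 genes. Msln, mesothelin, was at 0.127 in P1, 6.86 in P4 and 171 in P6, and Krt18 at 0.078, 1.49 and 67, while Krt19 was at 6.33, 197 and 619.8. Keratins of simple epithelium were thus low in P4 apart from Krt19. The part of mesothelial cells or their RNA in the difference between P1 and P4 was not tested.

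The upstream sequences of Eng, Aldh1a2, Upk3b and 3 further mesothelial genes are given for reference. Each is the 250 bases before the start site from RefSeq on GRCm38.p6, read 5′ to 3′ on the strand of the gene. Capitals mark matches, on either strand, to a GATA motif (AGATAA), a TEAD motif (GGAATG) or a nuclear receptor half-site (AGGTCA). The 3 genes after Upk3b are those of the mesothelial list whose window held the TEAD letters, and the windows of Eng and Aldh1a2 held none of the 3 motifs.
Eng, chr2:32646345-32646594, + strand: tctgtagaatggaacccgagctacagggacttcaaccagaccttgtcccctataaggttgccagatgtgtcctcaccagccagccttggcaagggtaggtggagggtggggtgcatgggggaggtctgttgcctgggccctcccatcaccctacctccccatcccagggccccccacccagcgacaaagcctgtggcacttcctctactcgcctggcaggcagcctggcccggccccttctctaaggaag
Aldh1a2, chr9:71215539-71215788, + strand: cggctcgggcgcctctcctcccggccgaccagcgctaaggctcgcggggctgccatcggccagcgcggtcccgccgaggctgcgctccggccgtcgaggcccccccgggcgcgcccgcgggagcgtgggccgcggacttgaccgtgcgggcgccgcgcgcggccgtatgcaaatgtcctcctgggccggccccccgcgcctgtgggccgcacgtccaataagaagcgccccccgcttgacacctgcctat
Upk3b, chr5:136038246-136038495, + strand: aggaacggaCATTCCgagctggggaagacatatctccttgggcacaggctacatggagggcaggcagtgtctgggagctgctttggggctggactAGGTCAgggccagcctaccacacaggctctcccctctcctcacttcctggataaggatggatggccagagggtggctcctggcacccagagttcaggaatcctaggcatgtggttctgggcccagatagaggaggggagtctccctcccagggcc
Cldn15, chr5:136967619-136967868, + strand: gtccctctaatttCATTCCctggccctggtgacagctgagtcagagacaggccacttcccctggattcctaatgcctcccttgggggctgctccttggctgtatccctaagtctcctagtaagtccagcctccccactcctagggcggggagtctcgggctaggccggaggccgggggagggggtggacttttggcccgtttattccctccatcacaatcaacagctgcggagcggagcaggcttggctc
Gpm6a, chr8:54779184-54779433, + strand: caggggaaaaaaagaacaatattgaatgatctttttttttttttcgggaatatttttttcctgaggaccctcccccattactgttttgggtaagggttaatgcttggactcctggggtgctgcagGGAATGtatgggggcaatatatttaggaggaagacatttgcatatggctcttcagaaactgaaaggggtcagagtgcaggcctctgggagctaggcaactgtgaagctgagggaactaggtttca
Lrrn4, chr2:132880863-132881112, - strand: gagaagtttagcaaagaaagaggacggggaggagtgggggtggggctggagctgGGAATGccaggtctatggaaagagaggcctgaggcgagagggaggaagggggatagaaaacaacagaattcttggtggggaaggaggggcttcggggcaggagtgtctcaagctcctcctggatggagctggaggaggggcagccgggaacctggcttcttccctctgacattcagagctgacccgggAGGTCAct

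Cldn15, a claudin of tight junctions, was at 3.47 FPKM in P1 and 58.1 in P4, and Gpm6a, a membrane glycoprotein, at 3.04 and 98.9. Counted from the start site, the TEAD letters began at -241 in Upk3b, -237 in Cldn15, -125 in Gpm6a and -196 in Lrrn4. Half-sites began at -155 in Upk3b and -8 in Lrrn4. The TEAD letters were in 4 of 12 windows of 11 mesothelial genes (33.3%), in 15.6% of 1102 windows of P4-higher genes, in 14.5% of 470 windows of P1-higher genes, in 11% of 11342 windows of genes at 1 FPKM or more in P1 or P4 and in 12.6% of all 32851 windows. The half-site was in 5 of the 12 mesothelial windows (41.7%), 12.5% of P4-higher, 11.7% of P1-higher, 10.6% of expressed and 14% of all windows. The GATA letters were in 1 of the 12 (8.33%), 8.44% of P4-higher, 5.11% of P1-higher, 5.71% of expressed and 9.99% of all windows. P4-higher genes thus lay above the expressed genes for each motif, and for the GATA letters and the half-site below all windows. P1-higher genes also lay above the expressed genes for the TEAD letters and the half-site, but below them for the GATA letters. None of these differences was tested. A match describes letters in a window and is no evidence of binding.

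Among genes of 10 FPKM or more in P4, with small RNAs left out, pancreatic enzymes had the widest ratios. All 32 acinar genes at 1 FPKM or more were higher in P4, with a median log2 ratio of -6.51 over the 37 in the files. Amy2a5, pancreatic amylase, was at 0.782, 75.8, 8.01, 433, 53.7 and 707 FPKM from P1 to P6. Ctrb1, a chymotrypsinogen gene, was at 0.191, 38.8, 2.4, 208, 19.5 and 273 in the same order. The order over the libraries, with P6 and P4 high, P2 next and P1 lowest, followed neither CD105 nor the rank of ALDH activity, and within each CD105 gate the intermediate ALDH population was the highest. The summed level was 5.71, 308, 33.6, 1686, 196 and 2445 FPKM from P1 to P6, so that the list made up 0.414% of all FPKM in P4. Amy2a5 was the most abundant member in P4 and Cela1 in P1. In P1 13 of the 37 were listed at 0, and in P4 none was. P4 had between 32.2% (Reg2) and 160% (Gm5771) of the P6 level, with a median of 71.6% over 33 genes. Of the islet and duct list, Cftr, Iapp, Ins1, Pdx1, Ppy and Sst were listed at 0 in P4, and its 1 member at 1 FPKM or more, Sox9, was higher in P1 (3.77 and 1.87). The part of pancreatic tissue or its RNA in the difference was not tested, and without the acinar list 1216 genes were higher in P4.

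**Figure D4:**
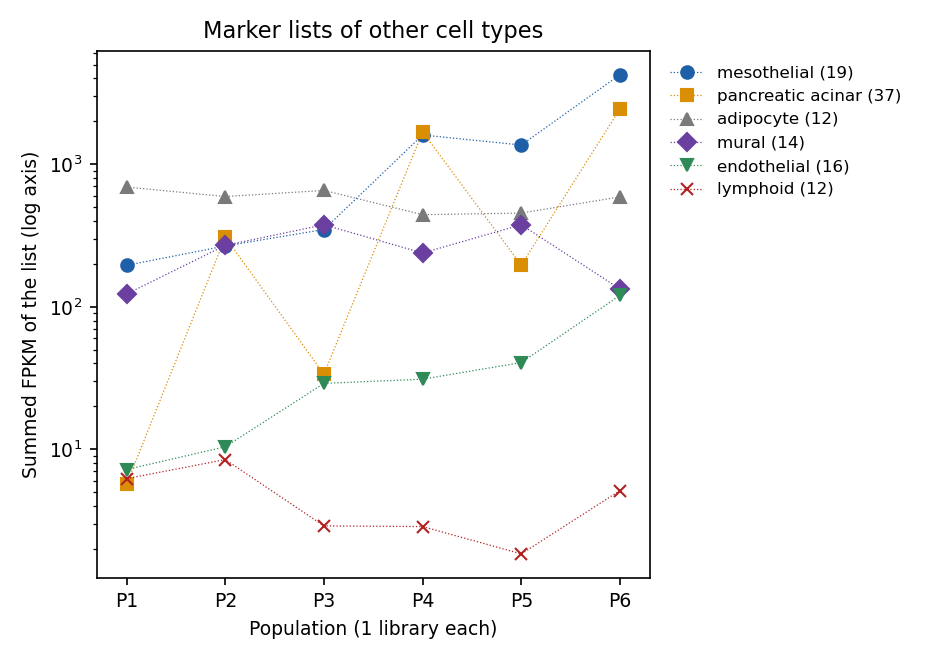
Summed FPKM (log axis) of marker lists of other cell types in each of the 6 populations, with the number of genes in the files in brackets; dotted lines join the libraries of a list. The mesothelial sum goes from 195 in P1 to 1605 in P4 and 4248 in P6, and the pancreatic acinar sum from 5.71 in P1 to 1686 in P4 and 2445 in P6.

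A set of P4-higher genes was lower in P6 than in P4 instead. For 153 of the 1248 (12.3%) the P4 level was more than 2 times that of P6. The same share over all genes was not counted, so the number is not read as a trait of the P4-higher genes. Examples, chosen after their values were seen, include Hdc, the enzyme that makes histamine, at 3.65, 4.22, 29.7, 104, 161 and 20.1 FPKM from P1 to P6. Angptl7, an angiopoietin-like secreted protein, was at 3.48, 2.91, 19.9, 96.1, 151 and 2.64 in the same order. Gatm, the enzyme of the initial step of creatine synthesis, was at 3.66 in P1, 92.5 in P4, 199.6 in P5 and 13.7 in P6. Star, which moves cholesterol into mitochondria for steroid synthesis, was at 5.38, 86.1, 119 and 39.1 in these 4. Cd24a was at 4.65, 56.1, 61.9 and 10.8, and Trf, transferrin, at 418, 1515, 2528 and 663. All 6 of these genes peaked in P5 and were higher in P3 than in P1. All but Angptl7 were also higher in P6 than in P1. Enpp2, chosen in the same way, encodes autotaxin, the enzyme that makes lysophosphatidic acid. It was at 165, 798, 1287, 1838, 2603 and 1815 FPKM from P1 to P6, so that here P1 was the low one of the 6.

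Other marker lists were compared in the same way. The endothelial list summed to 7.21 FPKM in P1, 31.0 in P4 and 120 in P6. Of its 4 genes at 1 FPKM or more 3 were higher in P4, led in level by Esam (0.656 in P1 and 15.1 in P4), while Pecam1 was at 0.518 and 0.0672 and Cldn5 was listed at 0 in P4. The most abundant endothelial gene in P1 was Plvap. The median was -2.62 over the 4 counted genes, whereas that of -0.03 over all 16 turned to 0.08 by the median of ratios, 0.22 on division by Gapdh and 0.26 after quantile normalization. The mural list summed to 123 in P1 and 238 in P4, with Des the most abundant in both, and 4 of 8 members were higher in P4, among them Myh11, smooth muscle myosin, at 2.28 in P1, 35.1 in P3, 56.6 in P4 and 91.8 in P5. Its median was -0.59 over these 8, and that of -0.12 over all 14 turned to 0.01, 0.20 and 0.18 under the same 3 scalings. Higd1b was listed at 0 in P1 and Cnn1 in P4. The adipocyte list summed to 692 in P1 and 443 in P4, led by Lpl in P1 and Fabp4 in P4, with 4 of 7 members higher in P1, none in P4 and Lep listed at 0 in both. Lymphoid markers summed to 6.22 in P1 and 2.87 in P4, and 2 of 3 members were higher in P1, led by Cd79b in P1 and Cd79a in P4. Cd3e was listed at 0 in both and Cd3g in P4. Myeloid markers summed to 21.8 and 20.5, with Lyz2 the most abundant in both, 1 of 7 members higher in P1 and 2 in P4, S100a9 listed at 0 in both and S100a8 in P4. The erythroid list summed to 59.9 in P1 and 75.6 in P4, with Hba-a1 the most abundant in both and 2 of 4 members higher in P1. The glial list summed to 11.7 and 5.05, and its 1 member at 1 FPKM or more, S100b, was higher in P1 (10.3 and 4.3), with Gfra3 and Sox10 listed at 0 in both. The part of these cell types in the results was not tested.

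**Figure D5:**
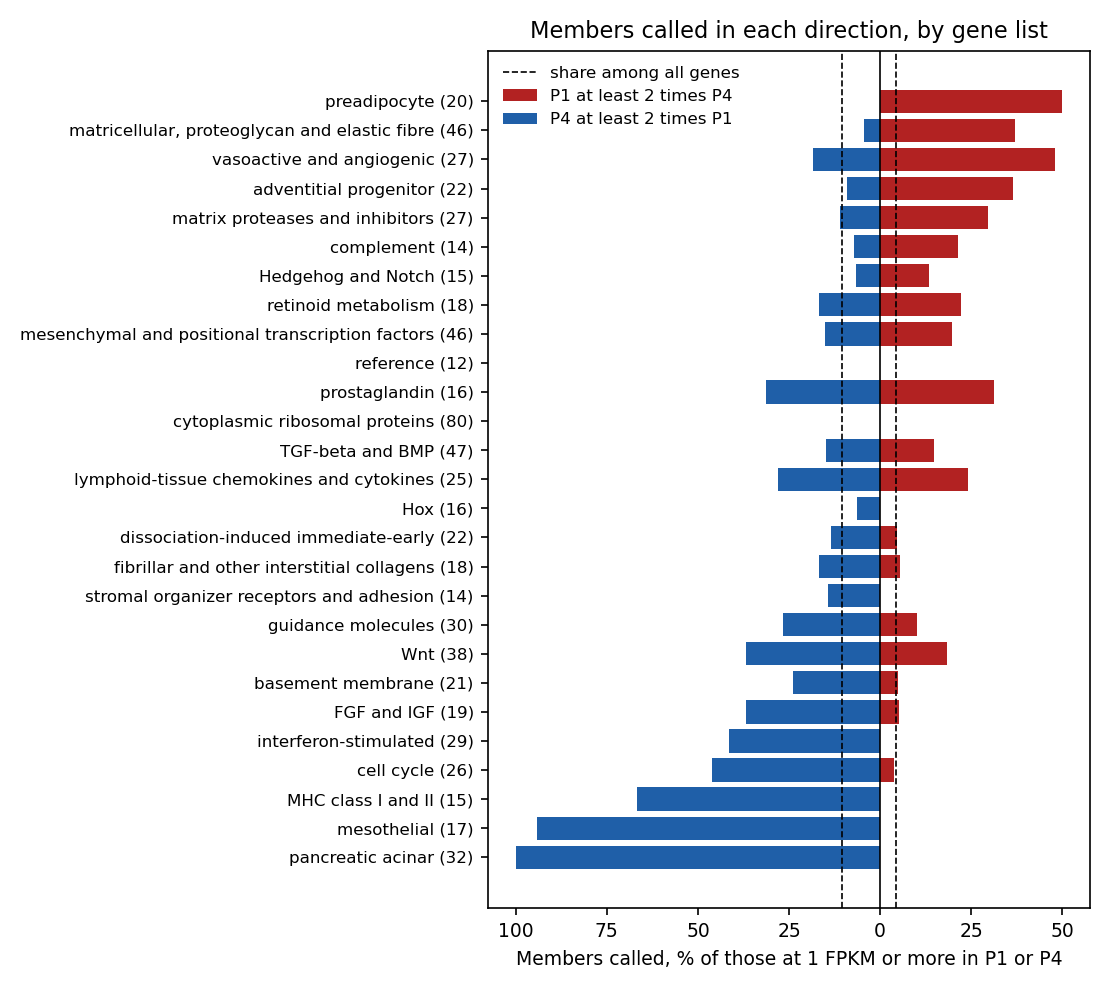
Share of the members at 1 FPKM or more in P1 or P4 (number in brackets) that were at least 2 times higher in P1 (red, right) or in P4 (blue, left), for gene lists with 10 such members or more; dashed lines mark the shares of all genes, 4.45% and 10.4%. The preadipocyte list reaches 50% on the side of P1 and the pancreatic acinar list 100% on the side of P4; the split of all called genes changes with scaling, from 30.1% to 61.7% on the side of P1.

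Some genes cannot carry a ratio because they were listed at 0 in a library. Gsn, gelsolin, was listed at 0 in P1, P2 and P3 but was at 5350.4, 2092 and 328 FPKM from P4 to P6. Fn1, fibronectin, was listed at 0 in P1 but was at 1258, 1090.1, 1516, 887 and 187 from P2 to P6. Serbp1, an RNA-binding protein, was at 29.1 in P1 and 30.2 in P2 and listed at 0 in the other 4. These are abundant transcripts in stroma, and whether the 0 reflects the cells or the making of the table was not tested. In all, 43 P4-higher genes were listed at 0 in P1, of which 17 were not small RNAs, and 20 P1-higher genes were listed at 0 in P4, of which 1 was not.

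Small RNAs and housekeeping groups complete the comparison. Of 92 small RNA genes at 1 FPKM or more 27 were higher in P1 and 32 in P4, and single members swung between libraries. Snora24, chosen after its values were seen, was at 12.9 in P1 and near 0 in the other 5. Mir207 was at 18.7 in P1 and 17 in P4 and at or near 0 elsewhere. None of 80 cytoplasmic ribosomal protein genes was called, and their median log2 ratio was 0.33. Of 22 immediate-early genes known to respond to tissue dissociation 1 was higher in P1 and 3 in P4, with a median of 0.07 that turned to -0.03 after quantile normalization. The exceptions were Ier3 (34.4 in P1 and 304 in P4), Hspb1 (158 and 777) and Nr4a3 (5.5 and 11.2) in P4, and Egr2 (20.8 and 9.67) in P1. No mitochondrially encoded gene was in the files.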

How the data were processed

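RNA was measured in 1 library from each of 6 sorted omental populations. The authors deposited FPKM for 23847 entries per library. The submitters' processing notes name TopHat2 2.0.7, Cufflinks 2.1.1 and mm10, and the gene annotation is not given in the sources used here. Entries that repeated a symbol (495) were summed, which left 23352 genes. A gene was called at a 2-fold ratio with at least 1 FPKM in the higher library, and shared genes at 1.5-fold. Log2 ratios used a pseudocount of 0.1. Depth is not given in the files. It was estimated from the spacing of low FPKM values of 3316 genes with a single transcript of 800 nt or more, for a fragment length of 200 nt, at 53.4 M reads in P1 and 58.6 M in P4 (61.7, 60.7, 61.8 and 37.0 M in P2, P3, P5 and P6). At these depths 56.6% and 54.4% of values up to 10 reads in P1 and P4 fell within 0.05 of a whole number. The 95% counting intervals rest on this estimate and on at least 3 reads in each library. PCR duplicates make true errors larger. Named genes were the sort markers, the 15 largest ratios in each direction at 10 FPKM or more, up to 6 called members of each of 41 gene lists at 5 FPKM or more and shared genes at 5 FPKM or more. Further list members were picked for their role after their values were seen. Small RNAs, genes the study names for P1 and, for P4, acinar genes were left out of the 15 largest ratios, and genes listed at 0 in the lower library were given apart since they have no ratio. Members and lists were chosen with earlier results of these data known. Promoters came from RefSeq on GRCm38.p6. Alternatives changed the minimum, the pseudocount, the scaling and the threshold (1.5 and 3, or 1.25 and 2 for shared genes) and left out gene groups. The work ran in Python 3.11.15 with matplotlib 3.10.9, scipy 1.17.1, pandas 2.3.3 and numpy 2.4.6, and the steps were tested on simulated data.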

Additional observations from a re-analysis of the deposited data

Results flagged for a closer look

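A gene was flagged when its computed CD105 step was at least 2-fold at both intermediate and low ALDH activity, with 1 FPKM or more in the higher library of each, and the 2 steps had opposite signs. Of the genes in the named set 2 met this rule. Ebf2, a transcription factor of fat cell precursors, was at 26.7 FPKM in P1, listed at 0 in P2 and at 10.6, 11.9, 3.09 and 0.203 from P3 to P6. Its log2 ratio with 0.1 added was -6.91 from P2 to P4 and 1.74 from P3 to P5. The former value comes from the 0 in P2 and the added 0.1, so it is not a measured ratio, and no opposite step is read from it. Hba-a2, an alpha globin gene, was at 9.92 in P1, near 0 in P2, at 7.89 in P3, 4.25 in P4 and near 0 in P5 and P6, with log2 ratios of -5.34 and 6.23. Its near-identical paralog Hba-a1 was at 43.8 in P2, 87.2 in P5 and 172 in P6, and how reads shared by the paralogs were assigned was not tested, so the near-0 values may not show levels in the cells. The difference between the steps was not tested in either gene, since each population had 1 library. Over all genes 19 met the same rule, of which 12 were small RNAs.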

How the results depend on the processing

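No paired analysis was possible because the populations were sequenced 1 time each, without replicates. The counts were 537 genes higher in P1, 1248 higher in P4 and 16 shared, with the CD105 step larger for 392 and 962. With no minimum these became 1865, 2975, 101, 1183 and 2029; at a minimum of 5 FPKM 332, 722, 7, 235 and 571; and at 10 FPKM 260, 526, 7, 187 and 415. A lower threshold gave 1096, 2084, 66, 781 and 1561, and a higher one gave 106, 806, 2, 77 and 640. Division by Gapdh gave 1309, 813, 8, 1091 and 588. A pseudocount of 1 gave 298 P1-higher, 7 shared and 215 with the larger CD105 step, and quantile normalization gave 852 P1-higher, 626 of them with the larger CD105 step. Requiring 1.5 times P6 left 6 shared genes. In an alternative chosen after seeing the data, leaving out genes that peaked in P6 left 539 P4-higher genes, 388 with the larger CD105 step. Fewer genes met a higher minimum or threshold by construction, and for the scalings the cause was not tested. All other alternatives, including those that left out small RNAs, acinar genes or genes listed at 0, stayed within 1.5 times. Of 156 named genes that were 2-fold apart, 139 stayed so under a pseudocount of 1 and each of 4 scalings, with 142 under division by Gapdh. Their direction could have turned under quantile normalization alone, since the others keep the sign or shift all genes alike by less than 2-fold, and under it all 156 kept their direction. Of list medians 163 values stayed within 0.2 on the log2 scale and 64 moved by 0.2 or more. Of ratios of named genes 329 stayed within the counting interval and 496 were labelled as moved. The 496 include genes with no counting interval, such as Mir207, however small the shift. They also include genes such as Bnc1, whose log2 ratio with the pseudocount already lay outside its interval as reported. The 496 are therefore not a count of ratios that left their interval.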

Other observations

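Antigen presentation genes were on the side of P4. Of 15 MHC class I and II genes at 1 FPKM or more 10 were higher in P4 (66.7%, against 10.4% of all genes) and none in P1, with a median log2 ratio of -1.27 over these 15 and -1.51 over the 16 in the files. The latter was -1.04 on division by Gapdh. H2-Ab1, a class II chain, was at 6.21, 12.4, 23.3, 62.6, 63.3 and 57 FPKM from P1 to P6. Cd74, the invariant chain, was at 21, 44.8, 47.2, 157, 119 and 145 FPKM from P1 to P6. The CD105+ populations lay below the CD105- ones for both genes. Ptprc was at 0.602 in P1 and 0.312 in P4, and the myeloid markers summed to 21.8 and 20.5. Over the same pair the mesothelial markers went from 195 to 1605 and the pancreatic acinar markers from 5.71 to 1686, and their part in these differences was not tested. Of the class I genes, H2-K1 was at 442 in P1 and 1069.7 in P4. Of 29 interferon-stimulated genes 12 were higher in P4 (41.4%) and none in P1, with a median of -0.88 that was -0.38 on division by Gapdh, and Ifi44 was at 1.3 in P1 and 10.7 in P4.

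Genes of cell division were also on the side of P4, with 12 of 26 cell cycle genes higher there (46.2%, against 10.4% of all genes) and 1 in P1 (3.85%). Their median of -0.60 shrank to -0.37 after quantile normalization and -0.11 on division by Gapdh. Top2a, a topoisomerase of dividing cells, was at 3.16, 2.93, 1.99, 7.8, 2.62 and 10.2 FPKM from P1 to P6, so that P4 and P6 were high and P5 was level with the CD105+ populations. Ccnb1, a mitotic cyclin, was at 1.44, 1.41, 0.631, 5.25, 0.925 and 4.31 in the same order. Ccnd1 followed another pattern, at 11.9 in P1, 49.2 in P4, 59.3 in P5 and 13.7 in P6. Cdkn1c, an inhibitor of cyclin-dependent kinases, was the 1 member higher in P1, at 19.7 against 6.99. The pancreatic acinar markers were also highest in P6 and P4, with sums of 5.71, 308, 33.6, 1686, 196 and 2445 from P1 to P6. The mesothelial markers went from 195 in P1 to 1605 in P4. The part of either in the cell cycle difference was not tested. Prostaglandin genes were divided, with 5 of 16 higher in each population. Of the list 2 members were named by the study for P1, so its share in P1 is not independent of that choice. The median of -0.09 turned to 0.08 by the median of ratios, 0.31 on division by Gapdh and 0.06 after quantile normalization. The inducible cyclooxygenase Ptgs2 was at 111 in P1 and 48 in P4, and its constitutive paralog Ptgs1 at 22.5 and 63.9.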
